A study of Mus musculus with 12 samples.

Results

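The replication-dependent histone genes of the mouse were read from RNA sequencing counts of a colon carcinoma cell line. Genes were taken where the Entrez identifier maps to a histone cluster symbol, in the older form (Hist1h2ap) or the newer one (H2ac24), and pseudogenes were left out. The rule found 71 of the 27179 genes in the count table. Of these, 67 are replication-dependent by name, namely 18 H2A, 18 H2B, 12 H3, 13 H4 and 6 H1 genes, and 54 of them lie on chromosome 13, 10 on chromosome 3, 2 on chromosome 11 and 1 on chromosome 6. The other 4 (H1f0, H1fx, H1fnt and H1foo) are linker histone genes that are not tied to DNA replication and are described apart. Older symbols are used throughout.

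The cells were MC38-idAdpgkG, a line made from the C57BL/6 mouse colon carcinoma line MC38 that carries a doxycycline-inducible, degradable Adpgk(R304M) fused to turboGFP, a model neoantigen. Every culture received 20 ng/mL mouse interferon-gamma. The control group had interferon-gamma alone for 51 h, the doxycycline group also had 1 µg/mL doxycycline for 51 h, the dTAG-13 group had 1 µM dTAG-13 for the last 3 h after 48 h of interferon-gamma, and the combined group had doxycycline throughout and dTAG-13 for the last 3 h. dTAG-13 is a small molecule that recruits a ubiquitin ligase to a tagged protein. Each group was 1 culture of this 1 line, sequenced as 3 technical replicates, so every error and adjusted p below measures the spread between libraries of a culture and not between cultures.

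Cells need new histones in bulk when DNA is copied, and the clustered histone genes supply them. Their mRNAs usually end in a short stem-loop in place of a poly(A) tail. The stem-loop is bound by Slbp, the stem-loop binding protein, and the mRNA is cut just after it with the help of the U7 small nuclear RNP, then degraded quickly when DNA synthesis stops. Histone genes are also known to make some polyadenylated mRNA, and these libraries were prepared with oligo(dT) beads, so the counts describe what that selection retained and not the whole histone mRNA pool.

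The stem-loops are shown because they are the feature that sets these mRNAs apart from other mRNAs. A 16-base stem-loop, with a 6-base stem and a 4-base loop, was found within 150 bases after the stop codon in 46 of 67 genes in GENCODE M21 transcripts (GRCm38), in the 3′ UTR. Capitals mark the stem-loop in DNA letters, 5′ to 3′ on the strand of the gene.

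Hist1h2ao: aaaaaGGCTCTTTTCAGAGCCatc
Hist1h2ag: acaaaGGCTCTTTTCAGAGCCacc
Hist1h3c: aaaaaGGCTCTTTTAAGAGCCacc
Hist1h4h: ccaaaGGCCCTTTTCAGGGCCgcc
Hist1h4i: ttaaaGGCCCTTTTTAGGGCCacc

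The stem-loop of Hist1h2ao lies at chr13:21810898-21810913 on the plus strand, that of Hist1h2ag at chr13:22042483-22042498 on the minus strand and that of Hist1h3c at chr13:23745047-23745062 on the minus strand. Those of the H4 genes Hist1h4h and Hist1h4i lie at chr13:23531458-23531473 on the plus strand and chr13:22040966-22040981 on the minus strand. The form of Hist1h2ao and Hist1h2ag was found in 26 genes, none of them H4. The form of Hist1h4h was found in 7 genes, all of them H4, and the form of Hist1h3c in 6 genes. The annotated transcript ended within 100 bases after the stem-loop in 23 genes and extended further in another 23. In 17 genes the model held 50 bases or fewer of 3′ UTR and stopped before any stem-loop, and in 4 (Hist1h2bc, Hist1h2bq, Hist1h2br and Hist2h2be) a longer 3′ UTR held none in the window searched.

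Hist1h2ao (Entrez 665433, chr13:21810367-21810918, plus strand, GRCm38) and Hist1h2ap (Entrez 319171, chr13:21833024-21833475, minus strand) had identical coding sequences of 390 bases. Of the 431 windows of 50 bases in Hist1h2ao, 403 were also in Hist1h2ap. How reads that fit several places were counted is not given in the sources used here, so the values of this pair cannot be told apart. In 30 of the 67 genes, over 50% of 50-base windows were shared with another member, and the median was 47%. Levels of such genes are therefore uncertain one by one. Whether sums over a family are less exposed depends on how such reads were counted, since dropped reads would be missing from the sums too.

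The 250 bases upstream of 3 genes (RefSeq, GRCm38.p6) are printed. The first pair has identical coding sequences. The third gene was called for a dTAG-13 effect that differed with doxycycline (edgeR adjusted p = 0.0475), a call lost in 11 of 18 alternative fits. Capitals mark CCAAT and TATAAA on either strand (ATTGG and TTTATA on the other). The windows are chr13:21810117-21810366 (plus strand), chr13:21833476-21833725 (minus strand) and chr13:23530794-23531043 (plus strand).

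Hist1h2ao: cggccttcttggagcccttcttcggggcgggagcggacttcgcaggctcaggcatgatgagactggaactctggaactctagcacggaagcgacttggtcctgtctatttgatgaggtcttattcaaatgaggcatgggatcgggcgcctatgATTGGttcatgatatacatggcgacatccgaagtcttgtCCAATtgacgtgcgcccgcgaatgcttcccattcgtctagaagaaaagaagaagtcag
Hist1h2ap: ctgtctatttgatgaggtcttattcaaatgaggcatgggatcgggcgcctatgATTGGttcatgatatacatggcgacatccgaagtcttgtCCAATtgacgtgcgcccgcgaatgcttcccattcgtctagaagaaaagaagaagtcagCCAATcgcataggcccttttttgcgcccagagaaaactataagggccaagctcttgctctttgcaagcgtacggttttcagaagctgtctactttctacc
Hist1h4h: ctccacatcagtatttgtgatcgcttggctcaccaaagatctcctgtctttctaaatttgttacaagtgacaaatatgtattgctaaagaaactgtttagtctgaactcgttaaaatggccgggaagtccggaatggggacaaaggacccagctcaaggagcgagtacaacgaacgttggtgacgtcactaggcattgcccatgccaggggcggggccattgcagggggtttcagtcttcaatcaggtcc

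The windows of Hist1h2ao and Hist1h2ap shared an unbroken run of 150 bases. The run closes the Hist1h2ao window and opens the Hist1h2ap window, so the windows are offset and the run is cut by their ends. The bases outside it, and the motifs in them, therefore come from different places and do not show a difference between these genes. Neither CCAAT nor TATAAA was found in the window of Hist1h4h. Of 62 members with a RefSeq window, 51 (82.3%) held CCAAT on either strand, against 34.5% of 27025 promoters of all genes. TATAAA was present in 29 members (46.8%) and in 13% of all promoters, and both motifs were present in 24 members (38.7%) and in 4.6% of all promoters.

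Depth and identity were checked first. Libraries held 22165538 to 32809573 counts, and the 67 genes took 0.0272% to 0.0353% of them. Adpgk stood at 157.6 to 162.0 CPM in control and 1316 to 1355 CPM with doxycycline, which checks the induction. Libraries of a group differed beyond sampling noise in all 12 pairs (chi-square per degree of freedom 2.4 to 8.63), and the highest values, 8.26 and 8.63, were those of combined replicate 3 against its 2 partners. The labelled colon carcinoma identity had little marker RNA behind it, since none of 8 epithelial markers passed the filter on low counts. Epcam and Cdx2 were at 0 and the highest, Cdh1, averaged 0.224 CPM. The 4 mesenchymal markers were split, with Vim at 1257 CPM and Pdgfrb at 6.5 CPM, but Col1a1 at 0.0694 CPM and Col1a2 at 0.152 CPM. Of 5 leukocyte markers only Cd68 (1.25 CPM) was tested.

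In these libraries H2A mRNA made up most of the histone signal. Levels are given as CPM, the library-size-scaled count that edgeR gives, with TMM factors. H2A genes gave 75.6% of the summed CPM of the 67 genes, H4 8.95%, H2B 7.05%, H3 5.84% and H1 2.56%. Hist1h2ao and Hist1h2ap alone gave 58.5%. These shares also depend on how reads that fit several places were counted.

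The summed level of all 67 genes was 290.0, 285.7 and 281.7 CPM in control, 339.7, 325.1 and 344.6 CPM with doxycycline, 318.3, 310.5 and 328.4 CPM with dTAG-13, and 349.2, 324.2 and 339.6 CPM in the combined group. Every control library lay below every library of the other groups. Without Hist1h2ao and Hist1h2ap the mean was 117.5 ± 2.15 CPM in control, 127.5 ± 10.2 with doxycycline, 135.6 ± 6.9 with dTAG-13 and 149.8 ± 4.21 in the combined group (SD, n = 3). The order of the groups therefore differed between the dominant pair, which was highest with doxycycline (209.0 ± 11.5 CPM against 168.3 ± 6.07 in control), and the rest, which were highest in the combined group.

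The families did not follow one pattern. H2A sums were highest with doxycycline (265.6 ± 11.4 CPM) and lowest in control (217.7 ± 4.08 CPM). H3 sums were 22.9, 23.3 and 22.2 CPM in the combined group and 15.2 to 19.4 CPM in the other 9 libraries, with no overlap. H4 sums were 33.2 ± 3.82 CPM in the combined group and 25.3 ± 4.1 CPM with doxycycline, where replicate 1 (21.1 CPM) and replicate 3 (29.3 CPM) were far apart. H1 sums overlapped between control (7.06 ± 0.813 CPM) and doxycycline (7.03 ± 1.24 CPM) and were higher in all combined libraries (8.96 to 11.3 CPM). No test was made on sums.

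**Figure D1:**
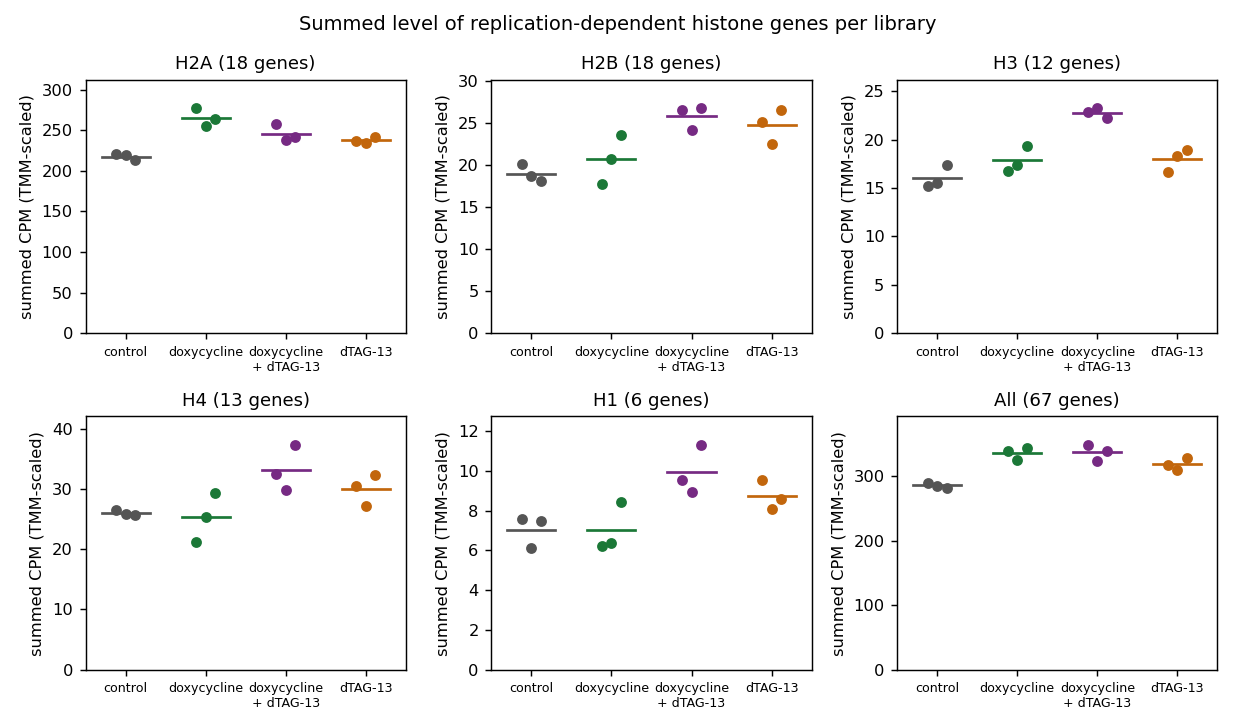
Summed CPM of each histone family in each library, on linear axes that start at 0; points are libraries and bars are group means (n = 3). The 3 combined libraries stand above the other 9 for H3, while H2A is highest with doxycycline.

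The 6 genes with the highest mean level were Hist1h2ao (93.9 CPM), Hist1h2ap (93.2), Hist1h2ag (17.3), Hist1h4i (15.0), Hist3h2a (9.75) and Hist1h3c (7.41). Per kilobase of the longest transcript, the means were 195.7 and 193.5 CPM for Hist1h2ao and Hist1h2ap, 35.7 for Hist1h2ag, 20.6 for Hist1h4i, 11.8 for Hist1h3c and 4.54 for Hist3h2a, so Hist3h2a and Hist1h3c change places. Of the 67 genes 58 passed the filter on low counts and were tested. The 9 that did not were Hist4h4 (81 counts over all libraries), Hist1h2bl (79), Hist2h2ab (21), Hist1h2bf (19), Hist1h2ba (9), Hist1h1t (2), Hist3h2ba (1), and Hist1h2aa and Hist1h2af, each with 0. A count of 0 allows up to 3 counts in a library, which is 0.0914 to 0.135 CPM here.

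Many H2A and H2B genes sit head to head, their starts less than 500 bases apart, and 12 such pairs were found. H2A genes had more counts in 8 of the pairs and were higher in all 12 libraries in 7, while the H2B gene was higher in all 12 in 1 pair (Hist2h2ac and Hist2h2be). Hist1h2ao had 81.4 times the counts of its partner Hist1h2bq, 268 bases away, and Hist1h2ap 62.5 times those of Hist1h2br, 236 bases away. Of the 50-base windows, 97.3% in Hist1h2bq and 88.5% in Hist1h2br were shared with another member. These ratios therefore also depend on how reads that fit several places were counted. The Hist1h2ag to Hist1h2bj ratio was 3.94. By counts Hist1h2ac was below Hist1h2bc (ratio 0.811), and Hist2h2ac below Hist2h2be (0.226). Per kilobase of the longest transcript, Hist1h2ac stood at 1.72 CPM and Hist1h2bc at 4.55 CPM. For Hist2h2ac and Hist2h2be the order changed, at 0.66 and 0.58 CPM. Per kilobase the H2A gene was higher in 10 of 12.

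**Figure D2:**
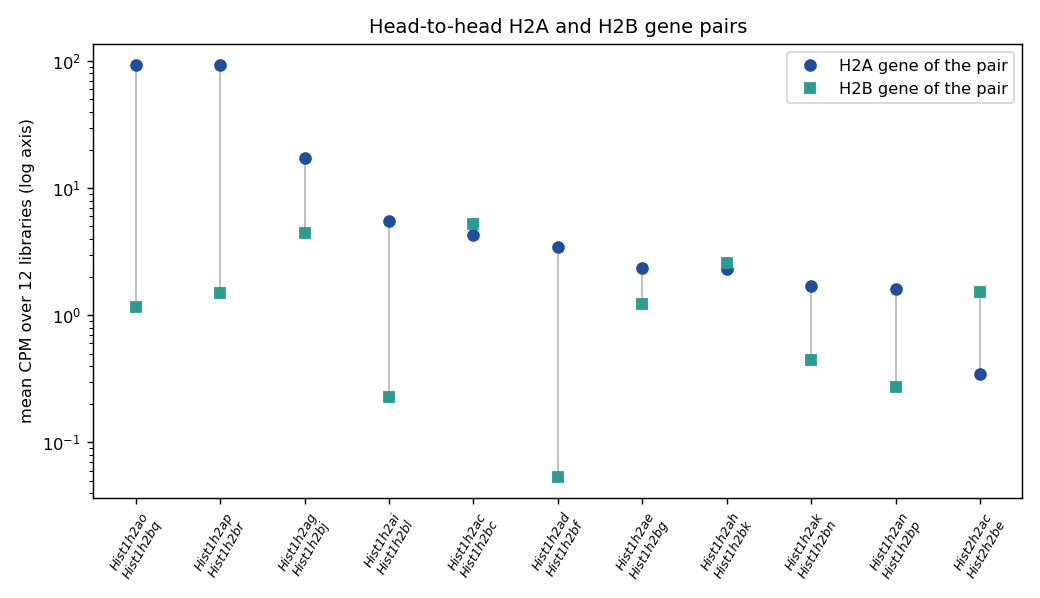
Mean CPM over 12 libraries (log axis) of the H2A gene (circle) and H2B gene (square) of each head-to-head pair, joined by a line; the pair with 9 counts or fewer is not drawn. The gap is widest at Hist1h2ao, Hist1h2ap and Hist1h2ad, and the H2B gene lies above at Hist1h2ac, Hist1h2ah and Hist2h2ac. These gaps also depend on how reads that fit several places were counted.

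Doxycycline, which switched the transgene on, was compared with control. No culture had doxycycline without the inducible transgene, so the drug itself and the induced protein cannot be told apart. Of the 58 genes tested, 6 were called higher and 0 lower at an adjusted p under 0.05, with 52 not called. At an unadjusted p under 0.05 there were 9, and DESeq2 called 5. Over all 12910 genes tested 33.5% were called, 14.8% higher and 18.7% lower. The members called were 5 of 15 H2A genes and 1 of 14 H2B genes, and none of the H1, H3 or H4 genes, of which 0 passed an unadjusted p under 0.05. All 6 were among the 12 tested members that averaged 3 CPM or more, and 0 of the 46 below that level were called. The parts of family and level in these calls were not tested apart. The median log2 fold change was 0.07 over the 58 genes and -0.01 over all genes, and for the H2A genes it was 0.28.

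Hist1h2ao was at 84.3, 86.6 and 84.8 CPM in control and 108, 100.3 and 103 CPM with doxycycline. All 3 doxycycline libraries lay above all control libraries, and the log2 fold change was 0.28 (SE 0.0326, edgeR quasi-likelihood test, Benjamini-Hochberg adjusted p = 3.85e-09). Hist1h2ap was at 89.4, 82.9 and 77.0 CPM in control and 113, 98.8 and 103 CPM with doxycycline, also without overlap (log2 fold change 0.34, SE 0.075, adjusted p = 0.00701 by the same test). Since its reads cannot be told from those of Hist1h2ao, these are not separate observations.

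Hist1h2ag, another H2A gene, rose from 14.2, 16.2 and 16.8 CPM to 19.7, 18.4 and 19.7 CPM (log2 fold change 0.29, SE 0.0685, edgeR adjusted p = 0.000729). In Hist1h2ag 78.9% of 50-base windows were shared with another member, so it may not be a separate observation either. Hist1h2ac went from 3.36, 3.86 and 3.48 CPM to 4.18, 5.47 and 5.39 CPM, with the largest log2 fold change among the called members (0.49, SE 0.136, edgeR adjusted p = 0.00464). In both genes the groups did not overlap.

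Hist1h2ai was at 4.33, 5.15 and 4.9 CPM in control and 5.31, 6.8 and 6.32 CPM with doxycycline (log2 fold change 0.36, SE 0.117, edgeR adjusted p = 0.015). It shared 84.6% of its 50-base windows with another member, so the same limit holds. The H2B gene Hist1h2bc, which faces Hist1h2ac, was at 4.42, 4.28 and 3.58 CPM in control and 5.18, 5.23 and 5.8 CPM with doxycycline (log2 fold change 0.39, SE 0.117, edgeR adjusted p = 0.00771). Neither overlapped. The calls of Hist1h2ao, Hist1h2ap, Hist1h2ag and Hist1h2ac were kept in all 20 alternatives. That of Hist1h2ai was lost with DESeq2 (0.35) and without control replicate 1 (0.28), doxycycline replicate 2 (0.29) or doxycycline replicate 3 (0.33), and that of Hist1h2bc without control replicate 3 (0.31) or doxycycline replicate 3 (0.34).

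Of the other abundant genes, Hist3h2a, also an H2A gene, the H4 gene Hist1h4i and the H3 gene Hist1h3c did not pass in this comparison. The log2 fold change was -0.10 for Hist1h4i (SE 0.0905, edgeR adjusted p = 0.417), -0.05 for Hist3h2a (SE 0.0876, adjusted p = 0.701) and 0.08 for Hist1h3c (SE 0.107, adjusted p = 0.613).

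**Figure D3:**
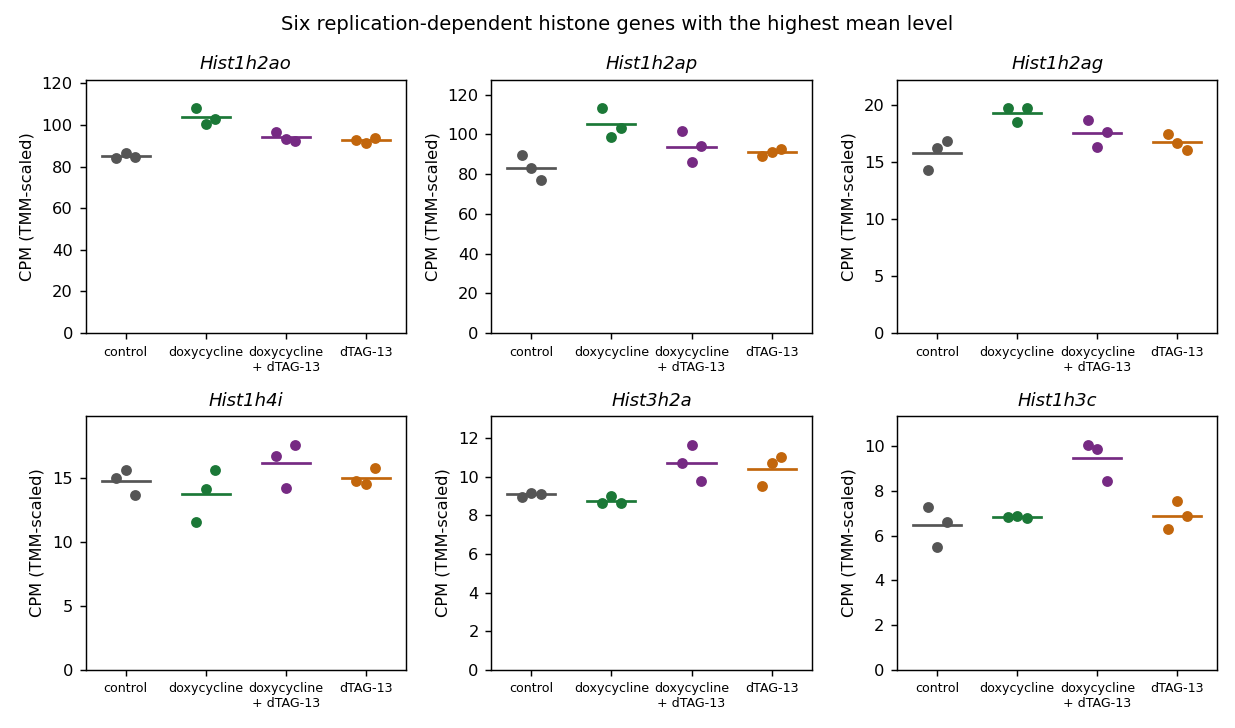
CPM in each of the 12 libraries for the 6 members with the highest mean level, on linear axes that start at 0; points are libraries and bars are group means (n = 3). Hist1h2ao, Hist1h2ap and Hist1h2ag are highest with doxycycline alone, while Hist1h3c is highest in the combined group.

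dTAG-13 without doxycycline, with the transgene off, was compared with control. Of 58 genes, 12 were called higher, 0 lower and 46 not called, with 12 at an unadjusted p under 0.05 and 7 called by DESeq2. Among all genes tested 62.1% were called, 30% higher and 32.1% lower. The called genes were 5 of 14 H2B, 3 of 12 H4, 2 of 15 H2A, 2 of 5 H1 and 0 of 12 H3 genes, none of which passed an unadjusted p under 0.05 either. The median log2 fold change was 0.25 over the members and 0.02 over all genes.

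Gene length moved with this result. The median longest transcript was 579 bases for the tested members and 3400 for the tested genes, and 47 of the 58 fell in the shortest eighth of genes (1578 bases or less). The 1471 genes of that eighth had a median log2 fold change of 0.21, close to the members' own. With an offset for transcript length and GC content the members' median was 0.05, and 3 genes were called higher and 2 lower. Over all 11745 genes in that fit, 2781 were called higher and 3902 lower.

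Hist2h4 (also H4c14), an H4 gene of the chromosome 3 cluster, was at 0.471, 0.193 and 0.497 CPM in control and 0.771, 0.644 and 0.93 CPM with dTAG-13 (log2 fold change 1.01, SE 0.348, edgeR adjusted p = 0.0114). Hist1h4k, another H4 gene, was at 0.565, 0.58 and 0.674 CPM in control and 1.12, 1.06 and 1.21 CPM with dTAG-13 (0.90, SE 0.291, edgeR adjusted p = 0.00725). The groups did not overlap in either gene.

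The H2B gene Hist1h2bq was at 0.627, 0.869 and 0.71 CPM in control and 1.74, 1.19 and 1.17 CPM with dTAG-13 (log2 fold change 0.89, SE 0.274, edgeR adjusted p = 0.00466). Hist1h2bb, an H2B gene of the same cluster, was at 0.847, 0.451 and 0.284 CPM in control and 0.9, 0.933 and 1.17 CPM with dTAG-13 (0.89, SE 0.323, edgeR adjusted p = 0.0157). Hist1h1b, the linker histone H1.5, was at 0.408, 0.29 and 0.497 CPM in control and 0.803, 0.483 and 0.861 CPM with dTAG-13 (0.84, SE 0.368, edgeR adjusted p = 0.0445). Only Hist1h1b of these overlapped, through dTAG-13 replicate 2.

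Among the abundant genes Hist1h2ao was 92.9, 91.3 and 93.5 CPM with dTAG-13, above all control libraries, at a log2 difference of 0.12 (SE 0.0329, edgeR adjusted p = 0.00193). Hist3h2a was 9.51, 10.7 and 11.02 CPM against 8.97, 9.18 and 9.12 CPM in control (0.20, SE 0.0852, edgeR adjusted p = 0.0446). With the length and GC offset Hist1h2ao was at -0.08 and not called, and Hist1h4i moved from 0.03 to -0.25, where it was called lower (edgeR adjusted p = 0.00702).

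Several of these calls were lost when 1 library was left out or the fit was changed. Hist2h4 was not called without control replicate 2 (0.68) or dTAG-13 replicate 3 (0.86), Hist1h2bq not without dTAG-13 replicate 1 (0.68), and Hist1h2bb not without control replicate 2 (0.77), control replicate 3 (0.61) or dTAG-13 replicate 3 (0.76). Hist1h2bb also lost its call with the offset (0.62, edgeR adjusted p = 0.0921), and Hist1h4k lost its call with the offset alone (0.64, edgeR adjusted p = 0.0508). Hist1h1b and Hist3h2a, close to the threshold as reported (edgeR adjusted p = 0.0445 and 0.0446), lost their calls in 10 of 19 and 12 of 20 alternatives. For Hist1h1b these included leaving out control replicate 1 (0.86) or 2 (0.65), doxycycline replicate 1 (0.84), combined replicate 1 (0.84) or 3 (0.84), and dTAG-13 replicate 1 (0.74) or 3 (0.69). For Hist3h2a they included every control replicate (0.18 to 0.20), every doxycycline replicate (0.19), combined replicate 1 (0.19) and dTAG-13 replicate 2 (0.17) or 3 (0.15). The count of 12 fell to 6 without control replicate 2 and to 5 without dTAG-13 replicate 3.

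With the transgene on, the combined group was compared with doxycycline alone. Of 58 genes, 21 were called higher, 1 lower and 36 not called, where 64.1% of all genes tested were called, 30.7% higher and 33.4% lower. H4 was the family with the most calls, 9 of 12 genes higher at a family median log2 fold change of 0.66. For H3, 4 of 12 genes were called higher, for H2B 3 of 14 and for H1 2 of 5. H2A had 3 of 15 higher and 1 lower, with a median of -0.01.

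Again the short genes moved with it: the shortest eighth of all genes had a median of 0.34, and the 58 members of 0.35, against 0.00 over all genes. With the length and GC offset the members' median was 0.05, and 5 genes were called higher and 8 lower. Over all 11745 genes in the fit with the offset, 2945 were called higher and 3521 lower. The 9 H4 calls were lost, leaving a median of 0.23, and 7 of 15 H2A genes were called lower at a median of -0.29. Only 6 of the 22 calls were kept in the same direction. The part of transcript length and base composition in these counts was not tested further.

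Hist1h1b was at 0.356, 0.167 and 0.552 CPM with doxycycline and 1.02, 0.747 and 1.05 CPM in the combined group (log2 fold change 1.40, SE 0.366, edgeR adjusted p = 0.000995). Hist1h2be, an H2B gene, was at 0.324, 0.5 and 0.414 CPM with doxycycline and 1.38, 0.55 and 0.989 CPM in the combined group (1.22, SE 0.36, edgeR adjusted p = 0.00328). The combined libraries were all above the doxycycline libraries in both genes. Their calls were kept in all 19 alternatives, the offset included.

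Hist1h3f, an H3 gene, was at 0.453, 0.433 and 0.863 CPM with doxycycline and 0.981, 1.18 and 1.37 CPM in the combined group (log2 fold change 1.04, SE 0.312, edgeR adjusted p = 0.0038), and its call was kept in all 20 alternatives. Hist2h4 was at 0.259, 0.3 and 0.345 CPM with doxycycline and 0.579, 0.707 and 0.575 CPM in the combined group (1.03, SE 0.395, edgeR adjusted p = 0.0215). Hist1h4h was at 0.583, 0.6 and 0.897 CPM with doxycycline and 1.65, 1.1 and 1.44 CPM in the combined group (1.00, SE 0.291, edgeR adjusted p = 0.00266). No doxycycline library reached a combined one in any of these genes. The call of Hist2h4 was lost with DESeq2 (1.05) and with the length and GC offset (0.83). It was also lost without combined replicate 2 (0.93), doxycycline replicate 1 (0.92) or doxycycline replicate 2 (1.01).

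Hist1h2ao, the 1 gene called lower, was at 96.8, 93.2 and 92.3 CPM in the combined group, below all 3 doxycycline libraries and above all 3 control libraries. The log2 fold change against doxycycline was -0.14 (SE 0.0328, edgeR adjusted p = 0.000198), and it was called lower in all 20 alternatives, down to -0.46 with the offset. Hist1h2ap was at 101.5, 85.9 and 94.0 CPM in the combined group and was not called (-0.17, SE 0.0752, edgeR adjusted p = 0.0807), and neither was Hist1h2ag, at 18.6, 16.3 and 17.6 CPM (-0.14, SE 0.0689, adjusted p = 0.0737). Without combined replicate 1 or doxycycline replicate 2 both genes were called lower, at -0.22 and -0.23 for Hist1h2ap and -0.18 and -0.19 for Hist1h2ag. Hist1h2ag was also called without dTAG-13 replicate 1 (-0.15).

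Of the other abundant genes, Hist1h3c was at 10.1, 9.86 and 8.43 CPM in the combined group against 6.83, 6.87 and 6.8 CPM with doxycycline, without overlap (log2 fold change 0.46, SE 0.104, edgeR adjusted p = 0.00017). Hist3h2a was at 10.7, 11.7 and 9.77 CPM against 8.64, 9.0 and 8.66 CPM, also without overlap (0.28, SE 0.0874, edgeR adjusted p = 0.00444). Hist1h4i was at 16.7, 14.2 and 17.6 CPM against 11.6, 14.2 and 15.6 CPM, with overlap (0.24, SE 0.0912, edgeR adjusted p = 0.0248). With the offset none of the 3 was called, and Hist1h4i stood at -0.18. Leaving out combined replicate 2 ended the call of Hist3h2a (0.22), and leaving out combined replicate 1 (0.22) or 3 (0.16) or doxycycline replicate 1 (0.11) or 2 (0.24) ended that of Hist1h4i. Without combined replicate 3, the library farthest from its partners, 13 members were called higher and 1 lower, and without doxycycline replicate 1 these were 12 and 2.

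The comparisons of dTAG-13 with control and of the combined group with doxycycline share no library. Of the 12 and 22 members called in them, 6 were the same genes, which is 50% of the first list and 27.3% of the second. These were Hist1h1b, Hist1h1c, Hist1h2ao, Hist1h4k, Hist2h4 and Hist3h2a, and 5 of the 6 moved the same way, Hist1h2ao being the exception. Of all 58 tested members 41 (70.7%) had the same sign in both comparisons. Over all 12910 genes tested, those called in both made up 80.4% of the first list and 77.9% of the second. Of these, 96.2% moved the same way, and 81.2% of all genes had the same sign. The members' shares were below those over all genes, but the genes were not matched for level. Of the 58 members, 46 averaged under 3 CPM.

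**Figure D4:**
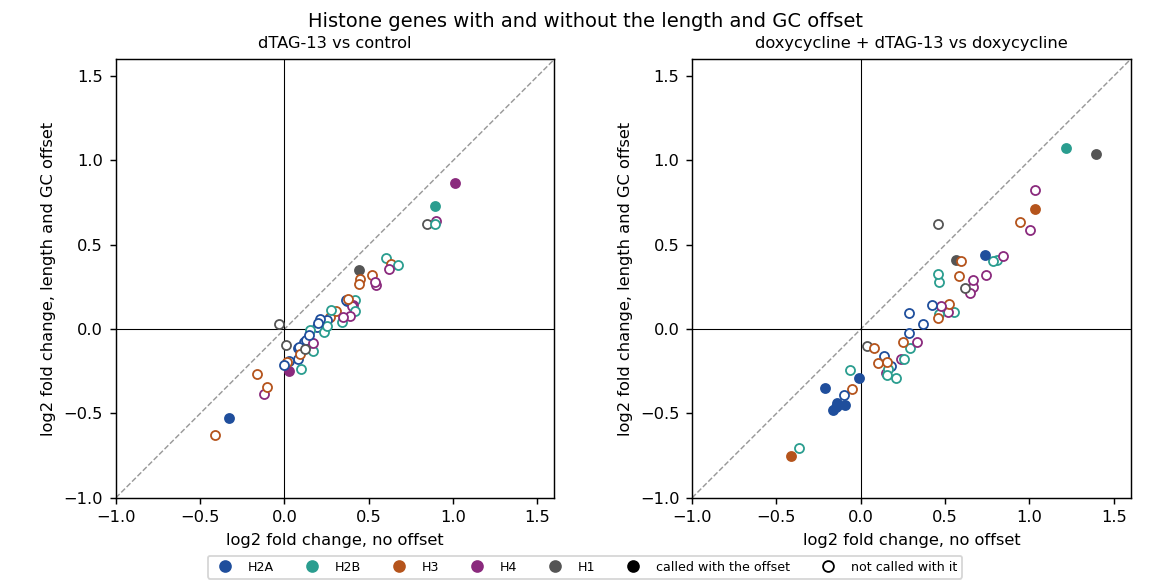
Log2 fold change of the 58 tested members without (horizontal axis) and with (vertical axis) the offset for transcript length and GC content, for dTAG-13 against control (left) and the combined group against doxycycline (right); the dashed line marks equal values and filled points are called with the offset. In each panel 57 of 58 points lie below the line, and in the right panel 7 H2A genes are called lower.

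The combined group was also compared with dTAG-13 alone, which reads doxycycline among cells with dTAG-13. Here too the drug itself and the induced protein cannot be told apart. Here 4 of 58 members were called higher and 0 lower (10 at an unadjusted p under 0.05, 1 by DESeq2), where 20.4% of all genes were called, 10.7% higher and 9.64% lower. The members' median log2 fold change was 0.18, against 0.00 over all genes and 0.08 in the shortest eighth. None of the 4 was among the 6 members called for doxycycline against control, a comparison that shares no library with this one. Over all genes tested 1331 were called in both, 30.7% of those called with doxycycline against control and 50.6% of those called here. With so few members called, the lack of overlap says little about them.

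Hist1h4h was at 1.19, 0.547 and 0.62 CPM with dTAG-13 against 1.65, 1.1 and 1.44 CPM in the combined group, and dTAG-13 replicate 1 lay within the combined range (log2 fold change 0.82, SE 0.283, edgeR adjusted p = 0.035). Hist2h3c1, an H3 gene of the chromosome 3 cluster, was at 0.835, 0.901 and 1.21 CPM with dTAG-13 and 1.47, 1.61 and 1.6 CPM in the combined group (0.68, SE 0.242, edgeR adjusted p = 0.0418). Hist2h2aa2, an H2A gene of that cluster, was at 1.64, 1.58 and 1.41 CPM with dTAG-13 and 2.18, 2.2 and 2.58 CPM in the combined group (0.60, SE 0.196, edgeR adjusted p = 0.0253). Apart from Hist1h4h these groups did not overlap.

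Hist1h3c was at 6.3, 7.53 and 6.85 CPM with dTAG-13, below every combined library, at a log2 difference of 0.45 (SE 0.103, edgeR adjusted p = 0.0013), and its call was kept in all 20 alternatives. The other 3 calls were each lost in 5 to 7 of 20. Hist1h4h was not called without combined replicate 1 (0.70) or 3 (0.79) or dTAG-13 replicate 2 (0.61) or 3 (0.68), and Hist2h2aa2 not without combined replicate 3 (0.51) or dTAG-13 replicate 2 (0.62) or 3 (0.54). Hist2h3c1 was not called without combined replicate 1 (0.71), 2 (0.66) or 3 (0.66) or dTAG-13 replicate 1 (0.58) or 2 (0.62). The 3 most abundant H2A genes differed little here, with log2 fold changes of 0.02 (SE 0.0331) for Hist1h2ao, 0.04 (SE 0.076) for Hist1h2ap and 0.07 (SE 0.07) for Hist1h2ag, and edgeR adjusted p-values of 0.702, 0.765 and 0.568.

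**Figure D5:**
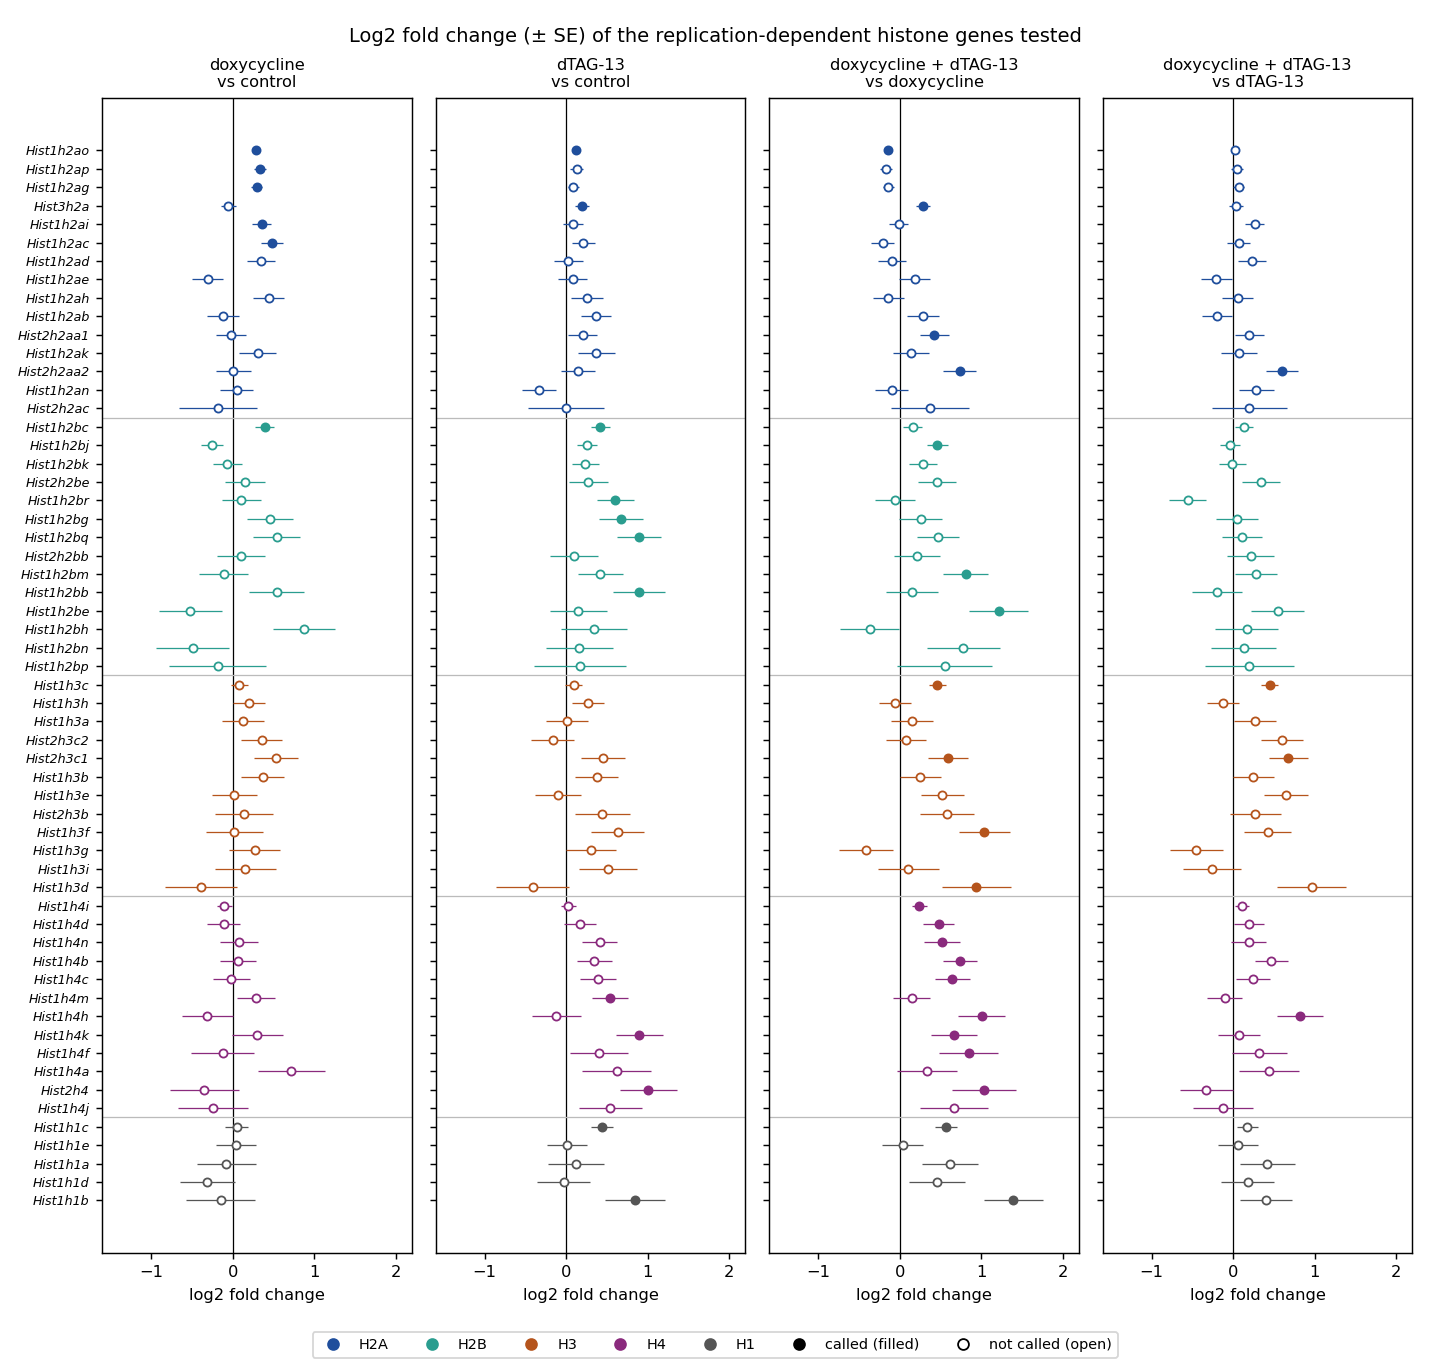
Log2 fold change with its SE for each of the 58 tested members in 4 comparisons, ordered by family and, within it, by falling mean CPM; filled points were called at an adjusted p under 0.05. Of the 6 calls with doxycycline alone 5 are in the H2A block, and all 6 are genes that average 3 CPM or more. Calls for the combined group against doxycycline fill most of the H4 block.

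The interaction, the dTAG-13 effect with doxycycline minus that without it, was called in 2 of 58 members, 1 in each direction, where 22.9% of all genes were called, 13.2% higher and 9.64% lower. For Hist1h2ao it was -0.26 (SE 0.0464, edgeR adjusted p = 4.48e-05), and this was kept in all 19 alternatives. For Hist1h4h it was 1.12 (SE 0.42, edgeR adjusted p = 0.0475), and this was lost in 11 of 18, among them leaving out any control replicate (1.05 to 1.17), combined replicate 1 (1.01) or 3 (1.1), doxycycline replicate 1 (1.01) or 2 (1.02), and dTAG-13 replicate 2 (0.91) or 3 (0.99). Hist1h2ap (-0.30, SE 0.107, edgeR adjusted p = 0.0818) and Hist1h2ag (-0.23, SE 0.0979, adjusted p = 0.0887) had values near that of Hist1h2ao and did not pass. Hist1h2ap is not a separate observation from Hist1h2ao, and Hist1h2ag may not be one. Hist1h2ap was called in 7 of 19 alternatives, with DESeq2 (-0.29), the offset (-0.42), scaling by library size only (-0.37), no filter on low counts (-0.30), the replicate block (-0.30), and without control replicate 1 (-0.35) or combined replicate 1 (-0.35). Hist1h2ag was called with the offset (-0.35) and with library size only (-0.30). The median over the members was 0.12, against 0.00 over all genes and 0.12 in the shortest eighth.

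Grouping by the end of the annotated transcript gave the following for the combined group against doxycycline. Of 22 tested genes that end at the stem-loop 9 were called higher and 1 lower, with a median of 0.33, and of 20 that extend past it 10 were called higher, with a median of 0.47. Among 12 whose model stops before a stem-loop 2 were called higher, and among the 4 with no stem-loop found 0 were. In that comparison 30.7% of all genes and 955 of the 1471 in the shortest eighth were called higher. For dTAG-13 against control, 3 of those 4 were called higher, Hist1h2bc, Hist1h2bq and Hist1h2br, where 30% of all genes were, and with the length and GC offset Hist1h2bq alone of these kept its call (Hist1h2bc 0.11 and Hist1h2br 0.42, edgeR adjusted p = 0.449 and 0.0911). The differences between these classes were not tested.

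The linker histone genes outside replication were set beside these. H1f0, which encodes the linker histone of non-dividing cells, had the highest mean over the 12 libraries of the 71 genes, 109.7 CPM, although with doxycycline it lay below Hist1h2ao and Hist1h2ap. It was at 99.8 ± 5.57 CPM in control, 95.8 ± 2.29 with doxycycline, 127.2 ± 0.544 with dTAG-13 and 116.1 ± 3.77 in the combined group (SD, n = 3). It was called higher for dTAG-13 against control (log2 fold change 0.35, SE 0.0332, edgeR adjusted p = 4.81e-12) and for the combined group against doxycycline (0.28, SE 0.0339, edgeR adjusted p = 2.22e-09), where the offset left 0.17 and the call. H1fx was at 7.88 CPM on average and was lower in the latter (-0.36, SE 0.116, edgeR adjusted p = 0.00769), a call lost without combined replicate 2 (-0.28). H1fnt and H1foo had 0 counts.

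Genes that process, remove, replace or carry histones were read from 5 lists. The shares of all genes called higher and lower, against which each list is read, were 14.8% and 18.7% for doxycycline against control, 30% and 32.1% for dTAG-13 against control, and 30.7% and 33.4% for the combined group against doxycycline. The 16 genes of histone mRNA transcription and 3′ processing were called higher and lower in 1 and 3 cases for doxycycline against control, 2 and 8 for dTAG-13 against control, and 3 and 9 for the combined group against doxycycline. Slbp was 58.9 ± 1.17 CPM in control, 59.4 ± 4.08 with doxycycline, 63.5 ± 0.981 with dTAG-13 and 64.5 ± 3.35 in the combined group. It was called higher with dTAG-13 in both settings (log2 fold change 0.11 and 0.12, edgeR adjusted p = 0.024 and 0.0164), but with the length and GC offset it was at -0.05 and -0.01 and not called. The first call was also lost with DESeq2 (0.11) and without control replicate 1 (0.11) or 2 (0.09) or dTAG-13 replicate 2 (0.10) or 3 (0.09), and the second without combined replicate 2 (0.07) or doxycycline replicate 1 (0.09) or 3 (0.07). Npat, the coactivator of histone gene transcription, was called higher with doxycycline (0.13, edgeR adjusted p = 0.0178) and lower in the combined group against doxycycline (-0.19, edgeR adjusted p = 0.000258). With the offset it was at 0.05 and -0.09 and not called, and the first of these calls was also lost with DESeq2 (0.12) and without control replicate 1 (0.09) or 2 (0.13) or doxycycline replicate 1 (0.12) or 2 (0.12).

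Larger falls on this list were those of Sympk, the scaffold of the cleavage complex, and Pou2f1, the octamer-binding factor of H2B promoters. Sympk fell from 152.3 ± 1.2 CPM in control to 105.7 ± 3.23 with dTAG-13 (log2 fold change -0.53, edgeR adjusted p = 3.04e-18), and from 145.9 ± 3.81 with doxycycline to 95.9 ± 4.89 in the combined group (-0.60, edgeR adjusted p = 8.79e-20), and with the offset these were -0.28 and -0.32, still called. Pou2f1 fell by 0.91 and 0.62 on the log2 scale in the same comparisons (edgeR adjusted p = 2.83e-13 and 8.59e-09), and stood at -0.63 and -0.27 with the offset, both called. Cpsf3, the endonuclease, was lower with doxycycline (-0.12, edgeR adjusted p = 0.000245), with dTAG-13 (-0.31, edgeR adjusted p = 2.22e-13) and in the combined group against doxycycline (-0.22, edgeR adjusted p = 2.99e-09).

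Of the 7 genes of histone mRNA decay, 4 were called lower and 1 higher for dTAG-13 against control, and 6 and 1 for the combined group against doxycycline, where 32.1% and 33.4% of all genes were called lower. Upf1, a helicase required for histone mRNA decay, fell from 183.4 ± 5.79 to 115.4 ± 0.952 CPM with dTAG-13 alone (log2 fold change -0.67, edgeR adjusted p = 2.06e-22) and from 162.5 ± 3.16 to 114.4 ± 4.92 CPM with doxycycline present (-0.51, edgeR adjusted p = 3.45e-18). With the offset Upf1 was at -0.42 and -0.21, still called. The decapping enzyme gene Dcp2 fell by 0.53 and 0.52 in these comparisons (edgeR adjusted p = 9.05e-21 and 1.79e-20), and by 0.36 and 0.26 with the offset, both called. Lsm1, of the ring that binds oligouridylated mRNA, rose by 0.58 in the combined group against doxycycline (edgeR adjusted p = 1.51e-14), while Eri1, the exonuclease that trims the stem-loop, was at -0.08 (edgeR adjusted p = 0.0172), a call lost with DESeq2 (-0.08), the offset (-0.01), scaling by library size only (-0.06), or without combined replicate 3 (-0.07) or doxycycline replicate 3 (-0.07).

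Replacement histones are made outside S phase as well, mostly from polyadenylated mRNA. Of 11 such genes, H1f0 and H1fx included, 6 were called higher and 2 lower for dTAG-13 against control, and 7 and 2 for the combined group against doxycycline, where 30% and 30.7% of all genes were called higher. H2afz, which encodes H2A.Z, was 31.4 ± 4.47 CPM in control, 24.0 ± 0.608 with doxycycline, 35.0 ± 5.95 with dTAG-13 and 41.9 ± 0.399 in the combined group, and rose by 0.80 against doxycycline (edgeR adjusted p = 0.00059), or by 0.43 with the offset, still called. H2afx, the variant phosphorylated at DNA breaks, was lower with dTAG-13 alone (-0.27, edgeR adjusted p = 2.77e-09). H3f3b, an H3.3 gene, was listed at only 0.493 to 1.15 CPM by group mean, and rose by 1.2 on the log2 scale for dTAG-13 against control (edgeR adjusted p = 0.000827).

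Among 18 histone chaperones 11 were called lower and 2 higher both for doxycycline against control and for dTAG-13 against control, and 10 and 4 for the combined group against doxycycline, where 18.7%, 32.1% and 33.4% of all genes were called lower. Chaf1a, a subunit of the replication-coupled chaperone CAF-1, fell from 119.0 ± 1.19 to 86.9 ± 3.12 CPM with dTAG-13 alone (log2 fold change -0.46, edgeR adjusted p = 1.46e-15), and was at -0.10 with the offset (edgeR adjusted p = 0.0108). With doxycycline present it was at -0.39 (edgeR adjusted p = 1.96e-13), and at 0.04 and not called with the length and GC offset. Asf1b, an H3-H4 chaperone, was at 55.0 to 57.0 CPM in all groups and was called in no comparison, but with the offset it was lower for dTAG-13 against control (-0.12, edgeR adjusted p = 0.0109) and for the combined group against doxycycline (-0.11, edgeR adjusted p = 0.0193).

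Of 19 S phase genes 9 were called lower and none higher with doxycycline, 11 lower and 4 higher with dTAG-13, and 11 lower and 6 higher in the combined group against doxycycline, beside the same shares of all genes. Ccne2, a cyclin E gene, rose from 30.8 ± 0.277 to 46.0 ± 2.19 CPM with dTAG-13 (log2 fold change 0.58, edgeR adjusted p = 1.88e-12, and 0.26 with the offset, still called), and Ccne1 rose by 0.24 (edgeR adjusted p = 1.31e-07). Pcna, the replication clamp, was 253.8 ± 5.77 CPM in control and 284.8 ± 8.18 with dTAG-13 (0.17, edgeR adjusted p = 4.35e-07), but at -0.11 with the length and GC offset. The helicase genes Mcm3, in dTAG-13 against control, and Mcm4, in the combined group against doxycycline, fell by 0.39 and 0.44 (edgeR adjusted p = 1.18e-17 and 2.53e-17). Whether the share of cells in S phase differed between the cultures was not tested, and in bulk RNA fewer cells with a transcript and less of it per cell cannot be told apart.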

How the data were processed

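The file holds unnormalized read counts as the authors deposited them, for 27179 Entrez genes in 12 libraries. Per the submitters' processing notes, bcl2fastq 2.17 and featureCounts were used with mm10; the aligner version, annotation, strand setting and treatment of reads with several matches were not given in the sources used here. All 12 columns matched a library and 0 others were present. Symbols came from RefSeq GRCm38.p6 and GENCODE M21, which also gave transcripts.

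Tests were run with edgeR 4.0.16 (R 4.3.3): filterByExpr (12910 genes kept), TMM scaling, robust quasi-likelihood F tests (two-sided) on 1 mean per group over all 12 libraries, Benjamini-Hochberg adjustment over all genes, calls under 0.05. SE is the fold change over the root of F. CPM was computed on TMM-scaled library sizes.

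Alternatives were RLE size factors, library size only, DESeq2 1.42.0, no filter, 1 CPM in 3 libraries, only the groups compared, a replicate block, leaving out each library, and an offset for longest transcript length and GC (splines, 5 degrees of freedom, 11745 genes, 91%). The code was tested on simulated data.

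Members and gene lists were chosen with earlier results of these data known. Per-library values are given for the 6 most abundant members and, per comparison, up to 5 called members with the largest log2 fold changes in each direction. Outside the members, 12 genes (Slbp, Npat, Upf1, Eri1, H3f3b, H2afz, H2afx, Asf1b, Chaf1a, Pcna, Ccne1 and Ccne2) and up to 2 called genes per list and comparison could be named, of which the text gives a part. Marker lists covered epithelial, mesenchymal and leukocyte genes.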

Additional observations from a re-analysis of the deposited data

Results flagged for a closer look

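Results are listed here where the effect of dTAG-13 differed between cells with and without doxycycline, by the edgeR interaction test with Benjamini-Hochberg adjustment over all genes. All values are log2 differences of fold changes, and a positive one means a higher dTAG-13 effect with doxycycline.

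Among the replication-dependent histone genes these were Hist1h2ao (-0.26) and Hist1h4h (1.12). Among genes of histone transcription, processing and decay they were Npat (-0.17), Casp8ap2 (-0.19), Lsm11 (-0.22), Tut7 (-0.28), Lsm1 (0.20) and Upf1 (0.16). Replacement histones were H2afj (0.36), H2afx (0.24) and H2afz (0.65). Chaperones and remodelers were Atrx (-0.15), Hira (0.23), Hjurp (0.32) and Supt16 (0.12). S phase genes were Pcna (0.16), Rrm2 (0.15), Tk1 (0.27) and Tyms (0.41). Adpgk, the induced gene, was at -0.14.

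Under the alternatives tried, the calls of Hist1h2ao, Tut7, H2afj, H2afx, Hira, Hjurp, Tyms, Tk1 and Adpgk were kept in all 19. Those of Hist1h4h (11 of 18), H2afz (11 of 19), Npat (10 of 19), Lsm11 (7 of 19), Lsm1 (4 of 19), Casp8ap2 (3 of 19), and Upf1 and Pcna (1 of 19 each, library size only) were lost in the number given. H2afz was lost with library size only (0.58) and without any 1 of 10 libraries (0.55 to 0.66), all but control replicate 3 and dTAG-13 replicate 1. The interaction calls of Atrx, Supt16 and Rrm2 were not followed through the alternatives.

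Npat was lost with DESeq2 (-0.17) and the offset (-0.08), and with any of 8 libraries left out (-0.17 to -0.14), namely control 1 and 2, doxycycline 1 and 2, dTAG-13 2 and 3, and combined 1 and 3. Lsm11 was lost with DESeq2 (-0.21) and the offset (-0.16), and without control replicate 1 or 3, combined replicate 3, doxycycline replicate 1 or dTAG-13 replicate 1 (-0.22 to -0.20). Lsm1 was lost with library size only (0.13) and without control replicate 2, doxycycline replicate 2 or dTAG-13 replicate 3 (0.18). Casp8ap2 was lost with the offset (-0.10) and without combined replicate 3 (-0.15) or dTAG-13 replicate 3 (-0.16). Upf1 and Pcna were at 0.09 with library size only.

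All 12 libraries enter each of these values, so they are not independent of each other or of the pairwise comparisons.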

How the results depend on the processing

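For doxycycline against control the count of called members stayed at 4 to 7 in every alternative (6 as reported, 4 to 7 when 1 library was left out). For dTAG-13 against control the 12 called became 7 with DESeq2, 19 with library size only, 5 with the length and GC offset (3 higher, 2 lower), and 5 to 13 when 1 library was left out. For the combined group against doxycycline the 22 called became 14 with DESeq2, 13 with the offset (5 higher, 8 lower), and 14 to 22 when 1 library was left out. For the combined group against dTAG-13 the 4 became 1 with DESeq2, 2 with the offset, and 1 to 4 when 1 library was left out. They were 2 without dTAG-13 replicate 2 or 3 or combined replicate 1, and 1 without combined replicate 3. The 2 interaction calls became 1 to 3 when 1 library was left out, with 1 without control replicate 3, dTAG-13 replicate 3 or doxycycline replicate 2. Their split of 1 higher and 1 lower became 0 and 3 with library size only and with the offset, and 0 and 2 with DESeq2. The cause of these differences was not tested.

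With the length and GC offset these log2 fold changes, called with or without it, changed sign: Hist1h2ao (-0.077) and Hist1h4i (-0.25) for dTAG-13 against control, Hist1h4i (-0.18) for the combined group against doxycycline, Slbp (-0.05 and -0.008 in these comparisons), Pcna (-0.11) for dTAG-13 against control, and Asf1b (-0.11), Chaf1a (0.036) and Cabin1 (0.055) for the combined group against doxycycline. Signs also changed where neither fit called the gene. With the offset these were Hist1h2ag (-0.104), Hist1h2ap (-0.064) and Hist1h3c (-0.149) for dTAG-13 against control, and Hist1h2ag (-0.047), Hist1h2ao (-0.092), Hist1h2ap (-0.07) and Hist1h4i (-0.006) for the combined group against dTAG-13. With library size only they were Hist1h2ao (-0.012) for the combined group against dTAG-13, Asf1b (0.088) for dTAG-13 against control and Chaf1a (-0.008) for the interaction. Asf1b was at 0.004 with a filter of 1 CPM in 3 libraries, and Eri1 at -0.001 with DESeq2, both for dTAG-13 against control. When 1 library was left out, ranges that crossed 0 were, for dTAG-13 against control, Hist1h3c (-0.02 to 0.185), Hist1h4i (-0.034 to 0.061), Eri1 (-0.032 to 0.015) and Asf1b (-0.048 to 0.019). For doxycycline against control they were Hist1h3c (-0.015 to 0.175) and Hist1h4i (-0.206 to 0.022), and for the combined group against dTAG-13 Hist1h2ap (-0.014 to 0.101) and Hist3h2a (-0.028 to 0.11).

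The median interaction over the members was -0.004 with the offset, and it ran from -0.006 (without doxycycline replicate 1) to 0.2 (without doxycycline replicate 3) when 1 library was left out. Of the values computed for named members under alternatives, 804 kept direction and side of the threshold, 78 fell below it, 25 rose past it and 19 changed sign.

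Scaling by library size only changed the split over all genes, for doxycycline against control from 1917 higher and 2414 lower to 2546 and 1607, for dTAG-13 against control from 3877 and 4144 to 5256 and 3115, for the combined group against dTAG-13 from 1386 and 1244 to 926 and 2132, and for the interaction from 1705 and 1245 to 818 and 2424.

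Same-numbered libraries of different groups did not deviate together (r from -0.06 to 0.09 over 18 pairs), so the numbers do not pair them. With the replicate number as a block the members called were 6, 13, 23 and 4 in the pairwise comparisons in the order above and 3 for the interaction. Most members had few counts, 46 of the 58 tested averaging under 3 CPM, where small changes were not detectable.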
